A study of Mus musculus with 6 samples.

Results

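The cadherins and protocadherins measured here are all 101 probe sets, of 45101 on the array, whose single platform gene symbol starts with Cdh and a digit or with Pcdh. They cover 56 of 18194 genes named by such probe sets, 21 Cdh genes with 39 probe sets and 35 Pcdh genes with 62. RNA came from cortex of untreated mice of 1 bacterial artificial chromosome (BAC) transgenic line, ES691, backcrossed for 3 to 5 generations from FVB onto C57BL/6, in which regulatory sequence of S100a10 directs a tagged ribosomal protein. In the TRAP group (n = 3) RNA was purified with the tagged ribosomes, by translating ribosome affinity purification. In the other group (n = 3) it was the cortical lysate of this line that is titled input but described as unbound, or flow-through, and it is called unbound here. Both groups therefore carry the transgene, and the labels give neither the age of the mice nor the number pooled per sample. Replicates are labelled biological without naming animals, so p-values measure the spread of these samples alone, some of which may be technical. The series text states that the line also labels some non-neuronal cells, so a TRAP value covers all labelled cells, and it recommends a published list of probe sets that was not used here.

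S100a10 itself was 7.08-fold and 5.86-fold higher in TRAP RNA by its 2 probe sets above the level minimum. Of 9 tested markers of pyramidal neurons, 3 were higher and 3 lower (after median centring, 5 higher and 2 lower). Their summed intensity ran from 16659.5 to 17345 on the TRAP arrays and from 16228 to 18496 on the unbound arrays. Markers of meningeal fibroblasts were higher in 14 of 14, with a summed intensity from 43437 to 48989.6 on the TRAP arrays and from 1782 to 2119 on the unbound arrays. TRAP RNA is RNA that was purified with tagged ribosomes from a mix of cells. Which cells carry the tag, RNA level per cell, ribosome binding and unspecific capture cannot be told apart here.

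Cadherins are adhesion proteins whose extracellular repeats are made rigid by calcium. Classical cadherins bind like cadherins on the neighbouring cell and are tied to actin through catenins, and type I and type II members differ in the residues that swap between partners. Protocadherins lack the catenin-binding tail: non-clustered members act in cell sorting, axon growth and synapses, while the clustered alpha, beta and gamma genes are chosen by promoter in single neurons and give each neuron a set of surface labels used in self-avoidance.

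The promoters of Cdh8, the only represented gene besides Cdh1 that was called higher in TRAP RNA, and of Cdh7, Pcdh17 and Pcdh8, which were lower by at least 2-fold, are shown to set sequence beside these opposite changes, which no test links. Each line gives the 250 bases before the annotated RefSeq start (GRCm38.p6), 5′ to 3′ on the gene's strand, with capitals on the E-box CACCTG or CAGGTG, the element through which Snail and Zeb repressors act on E-cadherin, and on the CCAAT box (CCAAT or ATTGG). The windows are chr8:99416472-99416721 (minus strand) for Cdh8, chr1:109982650-109982899 (plus strand) for Cdh7, chr14:84443313-84443562 (plus strand) for Pcdh17 and chr14:79771313-79771562 (minus strand) for Pcdh8.
Cdh8: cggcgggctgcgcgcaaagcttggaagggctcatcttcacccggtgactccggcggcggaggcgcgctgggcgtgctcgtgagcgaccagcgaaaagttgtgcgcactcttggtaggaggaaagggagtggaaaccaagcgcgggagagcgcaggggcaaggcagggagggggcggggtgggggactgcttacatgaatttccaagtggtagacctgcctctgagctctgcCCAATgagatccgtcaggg
Cdh7: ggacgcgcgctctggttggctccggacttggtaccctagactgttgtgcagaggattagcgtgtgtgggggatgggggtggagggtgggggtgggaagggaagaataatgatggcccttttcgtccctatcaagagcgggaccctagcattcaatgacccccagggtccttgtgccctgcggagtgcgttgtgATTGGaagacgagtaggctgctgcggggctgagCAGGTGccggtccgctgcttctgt
Pcdh17: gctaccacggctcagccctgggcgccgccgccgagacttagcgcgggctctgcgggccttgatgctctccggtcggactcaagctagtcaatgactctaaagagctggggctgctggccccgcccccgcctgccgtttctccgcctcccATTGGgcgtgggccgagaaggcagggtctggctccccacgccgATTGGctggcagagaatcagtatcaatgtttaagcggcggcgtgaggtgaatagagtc
Pcdh8: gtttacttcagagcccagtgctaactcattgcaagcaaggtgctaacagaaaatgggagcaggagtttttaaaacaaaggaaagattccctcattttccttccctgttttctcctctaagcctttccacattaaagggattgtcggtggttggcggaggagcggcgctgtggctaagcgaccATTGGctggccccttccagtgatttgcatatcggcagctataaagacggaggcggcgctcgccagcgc

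The 4 windows held 1, 1, 2 and 1 CCAAT boxes in the order Cdh8, Cdh7, Pcdh17 and Pcdh8, and the E-box was found in Cdh7 alone. Of all 32851 RefSeq windows of this length, 33.8% held a CCAAT box on either strand and 17.2% the E-box. The CCAAT box was chosen after the sequences were seen. CG pairs numbered 20 in the Cdh8 window, 13 in Cdh7, 21 in Pcdh17 and 11 in Pcdh8, with 64.4%, 60.8%, 64.8% and 51.2% G and C. Cdh7 has 3 annotated starts, of which the first listed is shown. These letters describe the windows only. Promoter entries were found for 16 of 34 represented genes.

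On the deposited scale 42 of 53 tested members were called lower in TRAP RNA, and 25 after median centring, and a single gene, Cdh1, was higher by more than 2-fold. A probe set was tested when its mean intensity reached 50 in at least 1 group, which 53 of the 101 did, representing 34 of 56 genes. Called means an adjusted p below 0.05 in limma, with Benjamini-Hochberg adjustment over all 22591 tested probe sets. Among 21 tested Cdh probe sets 2 were higher and 15 lower, and among 32 Pcdh probe sets 0 were higher and 27 lower. Over all tested probe sets 20.6% were called higher and 47.7% lower. By limma p under 0.05 without adjustment, the Pcdh count in the higher direction was also 0. Calls of at least 2-fold lower numbered 9 for Cdh and 11 for Pcdh, where the share over all tested probe sets was 16.6%. For calls of at least 2-fold higher, numbering 1 and 0, that share was 6.17%. The groups did not overlap in 46 of the 53 members, against 75.0% of all tested. With replicate number as a block the calls were 2 higher and 16 lower for Cdh and 0 and 28 for Pcdh, beside 21.9% higher and 49.5% lower over all tested.

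The median log2 fold change was -0.63 over the tested Cdh probe sets and -0.72 over the tested Pcdh probe sets, beside -0.25 over all tested probe sets. A member near the minimum could pass only through its higher group, so these medians and counts describe the tested members and support nothing on their own. Each array was also centred on its median over all non-control probe sets. Array medians were 31.4 to 31.8 for TRAP and 42.4 to 43.1 for unbound. They lie under the level minimum, so the shift made by centring rests on dim probe sets. After this centring the median over all tested probe sets was 0.19. The Cdh calls then became 3 higher and 10 lower and the Pcdh calls 3 and 15, beside 43.9% higher and 25.3% lower over all tested. At 2-fold and centred, 12.7% of all tested were higher and 8.95% lower, beside 4 Cdh and 6 Pcdh probe sets lower. The limma treat test against a 2-fold change, which 3.82% of all tested passed as higher and 9.49% as lower, called 1 Cdh probe set higher and 4 lower, and 5 Pcdh probe sets lower. Repeated values within a group, which 24 of the 53 members hold beside 53.6% of all tested, make the spread between arrays small, so a low adjusted p of such a member is weaker evidence than it states.

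**Figure D1:**
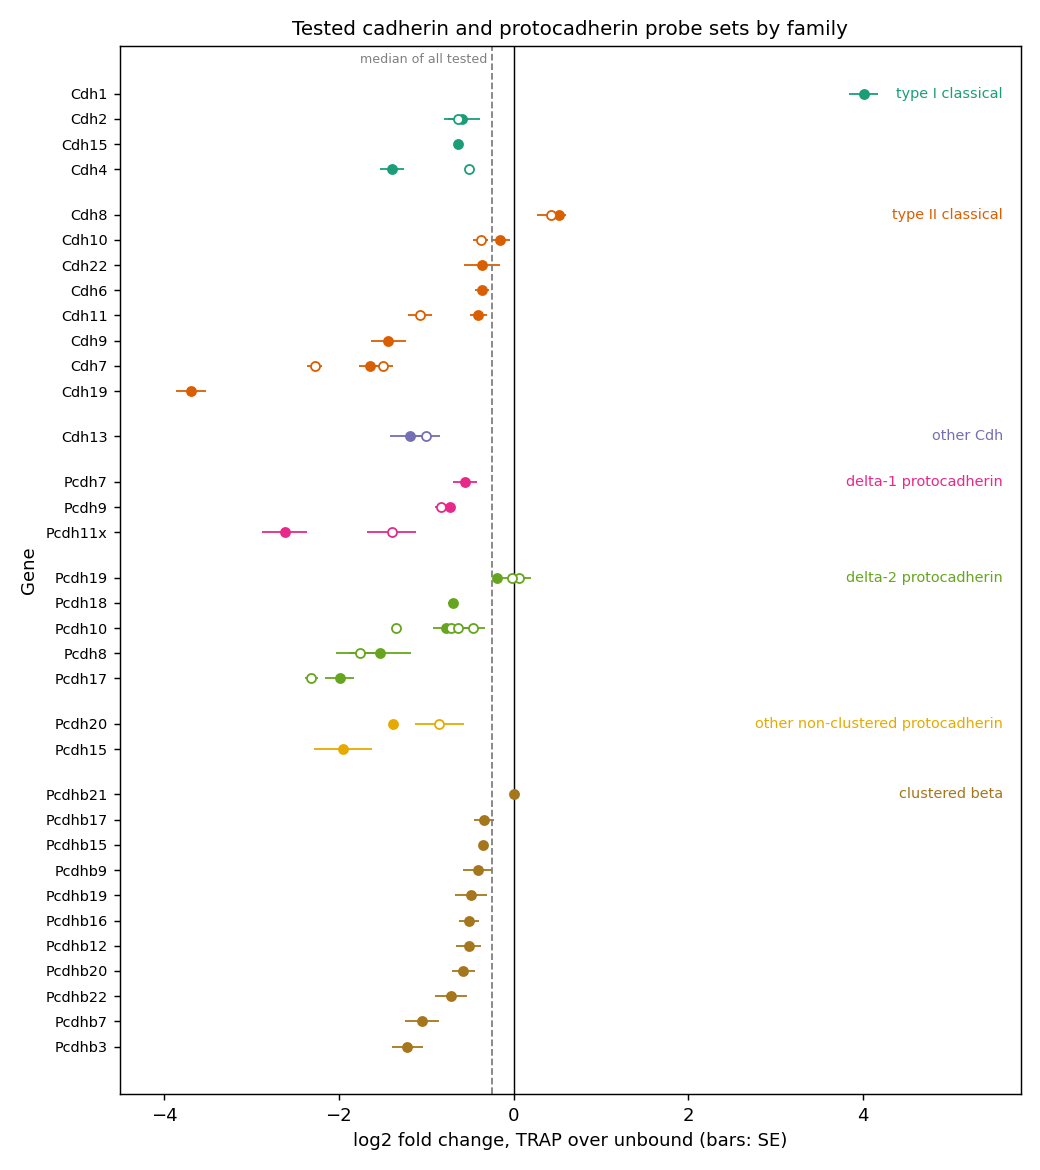
Log2 fold change of TRAP over unbound (x axis, bars show SE) for the 53 tested probe sets, by gene (y axis) and family (colour), with filled points for the probe set that represents a gene and open points for its others. Cdh1 lies alone at 4.01, Cdh8 at 0.51, and most other points lie left of the dashed median of all tested probe sets at -0.25.

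Of the type I classical cadherins, Cdh1 was higher and Cdh4 and Cdh15 were lower. Cdh1 encodes E-cadherin, the main adhesion protein of epithelia, which arachnoid cells of the meninges also make. Its probe set measured 281, 428 and 309.8 on TRAP arrays 1 to 3 against 21.1, 21.2 and 20.2 on unbound arrays 1 to 3. All 3 TRAP arrays lay far above all 3 unbound arrays, which were under the minimum. The means were 339.8 ± 78.1 (SD, n = 3) against 20.8 ± 0.551, a 16.1-fold difference (log2 fold change 4.01, SE 0.17, limma adjusted p = 2.7e-05). With values under 50 raised to 50 it was 6.68-fold higher (adjusted p = 1.6e-04), so the size of the fold depends on the dim unbound values. At 2-fold or more, 7.29% of all represented genes were called higher. Beside it, the meningeal fibroblast markers were higher in 14 of 14, and 5 of them had unbound means under 50. Choroid plexus and ependymal markers were higher in 3 and lower in 1 of 5, and after median centring 3 were higher and 0 lower. Their summed intensity ran from 1122 to 1387 on the TRAP arrays and from 299.5 to 3108 on the unbound arrays. Unbound array 3 stood apart through Ttr, the transthyretin gene of choroid plexus, which read 159, 76.3 and 2886 on unbound arrays 1 to 3 and 35.0, 36.4 and 175 on TRAP arrays 1 to 3. Without that array the unbound sums were 382 and 299.5. The part of these cells in the Cdh1 value was not tested.

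Cdh3, the P-cadherin gene, lies next to Cdh1 in RefSeq order on chromosome 8 with 0 protein-coding genes between them, and did not reach the level minimum. Its brighter probe set read 34.3, 34.3 and 34.3 on the TRAP arrays and 35.0, 30.3 and 30.3 on the unbound arrays, so the neighbour of Cdh1 was under the minimum in both groups.

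Cdh2 encodes N-cadherin, the classical cadherin of neurons and their synapses. It measured 1466, 1943 and 1702 on TRAP arrays 1 to 3 against 2020.0, 3259.8 and 2525 on unbound arrays 1 to 3. Every TRAP value was below every unbound value, but unbound array 2 stood well above unbound array 1. The difference, 1703 ± 238 (SD, n = 3) against 2602 ± 623 (1.51-fold lower), did not pass (log2 fold change -0.59, SE 0.21, limma adjusted p = 0.0533). With replicate number as a block it passed (adjusted p = 0.0077), and a dimmer Cdh2 probe set, with 1 repeated value on the TRAP arrays, was called lower at -0.64 (adjusted p = 0.0052). Without unbound array 1 the represented probe set was called too. After median centring the represented value was -0.16 (adjusted p = 0.53).

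Cdh4, which encodes R-cadherin and can bind N-cadherin, measured 59.3, 83.5 and 72.9 on TRAP arrays 1 to 3 against 178, 185 and 198 on unbound arrays 1 to 3. The groups were well apart, at 71.9 ± 12.1 (SD, n = 3) against 187 ± 10.1 (2.62-fold lower, log2 fold change -1.39, SE 0.14, limma adjusted p = 5.9e-04). Its dimmer probe set, with 1 repeated value in each group, gave -0.51, and -0.07 without a call after median centring (adjusted p = 0.14). Cdh15, the M-cadherin gene first known from muscle, was 1.55-fold lower at 65.0 ± 0 (SD, n = 3) against 101 ± 2.66 (adjusted p = 3.7e-05). Its 3 TRAP arrays hold the same value. That p therefore rests on the spread of the unbound arrays and on the variance that limma borrows from all tested probe sets.

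Type II cadherins, which pattern brain regions and neuron types, were lower in 5 of 8 represented genes and higher in 1, with Cdh6 and Cdh11 of the lower ones turning to slightly above 0 after median centring. Over all represented genes 45.6% were lower and 23.2% higher, so the count for type II genes lies near that share. Cdh19, expressed in Schwann cell precursors and other glia, measured 9.40, 14.1 and 9.60 on TRAP arrays 1 to 3 against 139.9, 139.9 and 139.9 on unbound arrays 1 to 3. The TRAP values were far under the minimum, and the unbound arrays hold 1 repeated value. The fold was 12.9-fold (log2 fold change -3.69, SE 0.17, limma adjusted p = 4.0e-05), or 2.80-fold lower with values under 50 raised to 50. Oligodendrocyte markers were lower in 9 of 10 on the same arrays, with a summed intensity from 9255 to 14921 on the TRAP arrays and from 53952 to 59916 on the unbound arrays. Precursor markers were lower in 5 of 5, and in 4 after median centring. Their summed intensity ran from 958 to 1314 on the TRAP arrays and from 6246 to 7182 on the unbound arrays. Whether these cells account for part of the Cdh19 difference was not tested.

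Cdh7, the gene next to Cdh19 on chromosome 1 and known from migrating neural crest and from neurons, measured 109, 114 and 102 on TRAP arrays 1 to 3 against 397, 333 and 292 on unbound arrays 1 to 3. No TRAP array came near the unbound values. The means were 108 ± 6.02 (SD, n = 3) against 340.3 ± 53.0 (3.11-fold lower, log2 fold change -1.64, SE 0.12, limma adjusted p = 2.3e-04). Its other 2 probe sets were also called lower, at log2 fold changes of -1.50 and -2.28. All 3 Cdh7 probe sets were thus on the same side of 0. The -2.28 came from a probe set that read 28.4, 35.1 and 31.9 on TRAP arrays 1 to 3, under the level minimum. It read 154 on every unbound array, so its call is weaker evidence. With values under the level minimum raised to it, its log2 fold change was -1.62. The probe set at -1.50 repeats a value on TRAP arrays 1 and 3. Cdh20, also a type II gene of chromosome 1, had no probe set at the level minimum.

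Cdh9, which takes part in synapse formation in the hippocampus, measured 168, 256 and 266 on TRAP arrays 1 to 3 against 618, 559 and 649 on unbound arrays 1 to 3. TRAP array 1 was the lowest, and the groups were clearly apart at 229.8 ± 53.5 (SD, n = 3) against 609 ± 45.7 (2.70-fold lower, log2 fold change -1.43, SE 0.20, limma adjusted p = 0.0021). Its neighbours on chromosome 15, with 0 protein-coding genes between each pair, had smaller changes, though the difference from Cdh9 was not tested. Cdh6 was 1.28-fold lower (adjusted p = 0.012), and after median centring its log2 fold change was 0.08 and not called (adjusted p = 0.44). Cdh10 was not called by its brighter probe set (log2 fold change -0.15, adjusted p = 0.26) but was called lower by a dimmer one (-0.38, adjusted p = 0.011). After median centring both read above 0 without a call, at 0.29 and 0.06.

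Cdh8, a type II cadherin with regional expression in the developing cortex, was one of only 2 represented members called higher. It measured 770.3, 755 and 843 on TRAP arrays 1 to 3 against 594, 494 and 573 on unbound arrays 1 to 3. The groups did not overlap, with the lowest TRAP array above the highest unbound array. The difference was 1.43-fold, at 789 ± 47.1 (SD, n = 3) against 554 ± 52.8 (log2 fold change 0.51, SE 0.088, limma adjusted p = 0.0046), and after median centring its log2 fold change was 0.95. A second probe set read higher in TRAP RNA without passing (log2 fold change 0.42, adjusted p = 0.061) and its groups overlapped. After median centring it was called too (0.86, adjusted p = 0.0032).

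Cdh11, adjacent to Cdh8 on chromosome 8 and known as the cadherin of mesenchymal cells, was lower on the deposited scale but not after median centring. It measured 592, 588 and 694 on TRAP arrays 1 to 3 against 890.0, 758 and 826 on unbound arrays 1 to 3, a 1.32-fold lower value in TRAP RNA (log2 fold change -0.40, SE 0.095, limma adjusted p = 0.015). After median centring its log2 fold change was 0.03 (adjusted p = 0.75). A dimmer probe set gave -1.07 (adjusted p = 0.0017), and -0.63 after centring (adjusted p = 0.0076). Without TRAP array 1 or 2 or unbound array 3 the call of the brighter one was lost, at adjusted p from 0.0502 to 0.0528. The meningeal fibroblast markers were higher in 14 of 14 on these arrays. Of the markers of pericytes and smooth muscle, 5 of 7 were higher and 1 lower, with a summed intensity from 5457 to 6819 on the TRAP arrays and from 1951 to 2286 on the unbound arrays. The part of these cells in the Cdh11 value was not tested. Cdh5 encodes VE-cadherin of endothelial junctions and is the next gene along. Its brighter probe set stayed under the minimum, at 26.8, 32.0 and 27.6 against 16.9, 16.9 and 16.9. Of 5 tested endothelial markers 1 was higher and 3 lower, turning to 3 higher and 1 lower after median centring, with a summed intensity from 362 to 401 on the TRAP arrays and from 462 to 558 on the unbound arrays. Cdh22 was not called (log2 fold change -0.36, adjusted p = 0.17), and its groups overlapped.

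Among Cdh genes outside the classical types, Cdh13 alone was tested. It encodes T-cadherin, which is held in the membrane by a lipid anchor and binds adiponectin. Cdh13 measured 173, 266 and 254 on TRAP arrays 1 to 3 against 486, 449.9 and 636 on unbound arrays 1 to 3. TRAP arrays were all below unbound arrays, with means of 231 ± 50.5 (SD, n = 3) against 524 ± 98.5 (2.28-fold lower, log2 fold change -1.19, SE 0.22, limma adjusted p = 0.0065), and a second probe set gave -1.003 (adjusted p = 0.0040). The 8 Cdh genes without a tested probe set were Cdh16, Cdh17, Cdh18, Cdh20, Cdh23, Cdh26, Cdh3 and Cdh5. Group means of the 18 untested Cdh probe sets reached at most 49.0, and 9 of them read higher in TRAP RNA.

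**Figure D2:**
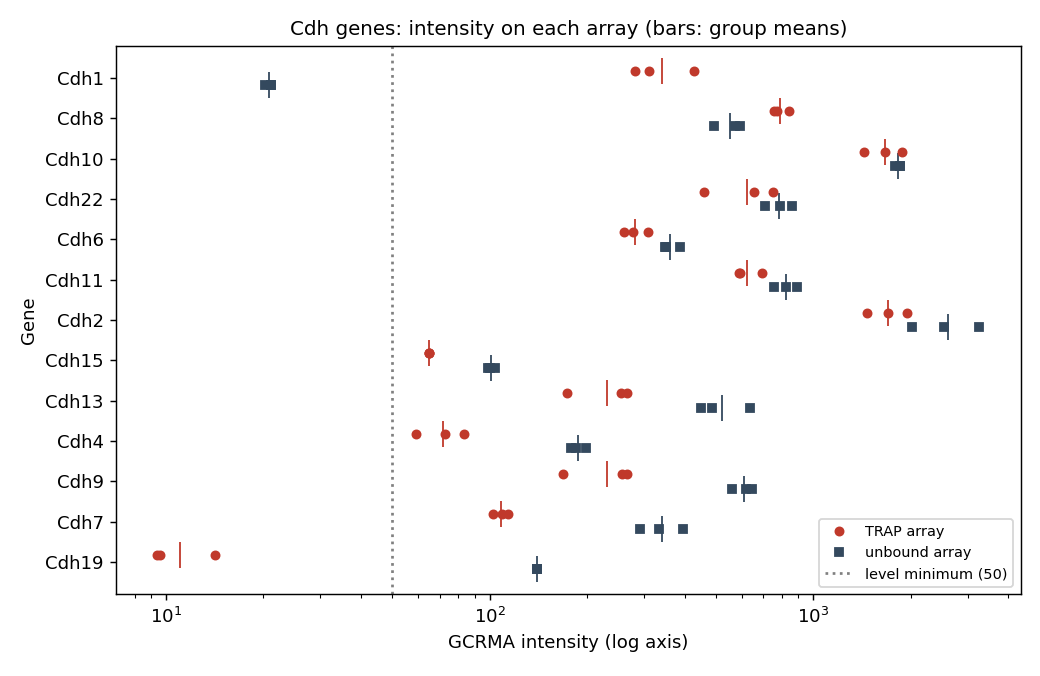
Intensity (x axis, log scale, GCRMA values) on each TRAP array (circles) and unbound array (squares) for the 13 represented Cdh genes (y axis), ordered by fold change, with vertical bars at group means and a dotted line at 50. Cdh1 is near 20.8 in unbound and 339.8 in TRAP RNA, and Cdh19 lies at 11.04 in TRAP RNA; Cdh10 and Cdh22 overlap between groups.

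Non-clustered protocadherins were lower in TRAP RNA in 19 of 21 tested probe sets and higher in 0. By represented gene all 10 were called lower, beside 45.6% lower over all 12070 represented genes, and 5 were at least 2-fold lower (all genes, 13.3%). After median centring Pcdh7 and Pcdh10 were not called and Pcdh19 was called higher. Among the delta-1 members, Pcdh11x had the largest change. This X-linked gene is expressed in developing and adult brain and measured 138, 274 and 194 on TRAP arrays 1 to 3 against 1168, 1261 and 1164 on unbound arrays 1 to 3. TRAP array 1 was the lowest and TRAP array 2 the highest of its group, and none approached the unbound level. The means were 202 ± 68.4 (SD, n = 3) against 1198 ± 54.7 (6.15-fold lower, log2 fold change -2.62, SE 0.26, limma adjusted p = 6.1e-04), and a second probe set gave -1.40 (adjusted p = 0.0082).

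Pcdh9, a delta-1 protocadherin of neurons, measured 5873, 6159 and 6159 on TRAP arrays 1 to 3 against 10024, 10024 and 10024 on unbound arrays 1 to 3. The unbound arrays hold a single repeated value, as do TRAP arrays 2 and 3, and TRAP RNA was 1.65-fold lower (log2 fold change -0.73, adjusted p = 2.5e-05). A second probe set without repeats gave -0.83 (adjusted p = 4.1e-04). Pcdh7, also called NF-protocadherin, was 1.47-fold lower at 1802 ± 252 (SD, n = 3) against 2639.8 ± 309.7 (adjusted p = 0.018). Its call was lost after median centring (-0.12, adjusted p = 0.46) and without any one of TRAP arrays 1 and 2 and unbound arrays 1 and 3 (adjusted p from 0.0532 to 0.064). Pcdh1 had no tested probe set.

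The delta-2 protocadherins, several of which bind the WAVE actin-regulating complex, were called lower in 5 of 5 genes on the deposited scale, with Pcdh19 turning after median centring. Pcdh17, found at synapses of cortical and basal ganglia circuits, measured 353, 497 and 531 on TRAP arrays 1 to 3 against 1787, 1769 and 1851 on unbound arrays 1 to 3. The groups were far apart, with TRAP array 1 lowest, at 460.3 ± 94.9 (SD, n = 3) against 1802 ± 43.0 (3.98-fold lower, log2 fold change -1.99, SE 0.17, limma adjusted p = 3.3e-04), and a second probe set gave -2.31 (adjusted p = 9.9e-06). Both passed the treat test against a 2-fold change (adjusted p = 0.0094 and 1.2e-04). The second probe set repeats a value on TRAP arrays 1 and 3 and on unbound arrays 1 and 3, so its low p is weaker evidence. Pcdh8, whose rat counterpart arcadlin is induced by synaptic activity and brings N-cadherin into the cell, measured 744, 1916 and 1226 on TRAP arrays 1 to 3 against 3429, 3560.0 and 3475 on unbound arrays 1 to 3. The TRAP arrays differed more than 2-fold among themselves, with array 2 highest, while the unbound arrays lay close together. The mean difference was 2.89-fold (log2 fold change -1.53, SE 0.35, limma adjusted p = 0.014). Because that probe set is of the _x_at type, which can cross-hybridise, the second is given too. It measured 363, 749 and 595 on TRAP arrays 1 to 3 against 1829.9, 1838 and 1857 on unbound arrays 1 to 3, with the same order of TRAP arrays (log2 fold change -1.76, SE 0.28, limma adjusted p = 0.0035).

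Pcdh10, an axon guidance protocadherin also called OL-protocadherin, had 5 tested probe sets, all called lower, with log2 fold changes from -1.35 to -0.46. The -1.35 came from the dimmest, which read 24.9 on every TRAP array, under the level minimum, and 63.4 on every unbound array. It has no spread in either group, so its low p has no weight. With values under the level minimum raised to it, its log2 fold change was -0.34. The other tested Pcdh10 probe sets ran from -0.78 to -0.46. The represented one measured 949, 1147 and 1378 on TRAP arrays 1 to 3 against 1947, 1911 and 2028 on unbound arrays 1 to 3 (1.71-fold lower, adjusted p = 0.0061), and lost its call after median centring (-0.34, adjusted p = 0.073). Pcdh18, which binds the Reelin adaptor Dab1, was 1.62-fold lower at 82.2 ± 0.0597 (SD, n = 3) against 133 ± 9.56 (adjusted p = 3.3e-04).

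Pcdh19, the X-linked gene of a female-limited epilepsy, had the smallest change among the called non-clustered genes. Its represented probe set measured 884, 849 and 958 on TRAP arrays 1 to 3 against 1021, 1021 and 1021 on unbound arrays 1 to 3. It was called lower by 1.14-fold (log2 fold change -0.19, adjusted p = 0.023) on repeated unbound values, and median centring turned it to 0.25 with a call in the other direction (adjusted p = 0.0087). The lower call was also lost without TRAP array 1 or without any one unbound array (adjusted p from 0.060 to 0.068). After quantile normalisation the represented value was 0.03 without a call (limma adjusted p = 0.73). The other 2 probe sets were not called, at 0.06 (adjusted p = 0.58) and -0.01 (adjusted p = 0.96), with overlapping groups.

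Pcdh15 forms the tip link of hair cells with Cdh23 and is also a gene of oligodendrocyte precursors. It measured 54.5, 25.5 and 54.5 on TRAP arrays 1 to 3 against 166, 164 and 162 on unbound arrays 1 to 3. TRAP array 2 was under 50 and the others, at 1 repeated value, just above, while the unbound arrays agreed closely. The difference was 3.87-fold (log2 fold change -1.95, SE 0.33, limma adjusted p = 0.0044), or 3.09-fold with values under 50 raised to 50. Precursor markers were lower in 5 of 5 beside it (4 after median centring), and their part was not tested. Cdh23 was under 50 in both groups. Pcdh20 measured 161 on all 3 TRAP arrays and 419 on all 3 unbound arrays, a 2.60-fold lower level, and with no spread in either group its adjusted p of 1.2e-06 has no weight. The second Pcdh20 probe set does vary and measured 54.9, 48.6 and 92.6 on TRAP arrays 1 to 3 against 103, 104 and 135 on unbound arrays 1 to 3, without overlap (1.80-fold lower, adjusted p = 0.045), and its call was lost after median centring (-0.41, adjusted p = 0.22). Pcdh12 had no tested probe set.

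Pcdh8, Pcdh17, Pcdh20 and Pcdh9 lie in this order on chromosome 14, with at most 2 other protein-coding genes between neighbours, and all 4 were called lower, with represented log2 fold changes of -1.53, -1.99, -1.38 and -0.73. Over all represented genes 45.6% were called lower, and any link to position was not tested. The Pcdh20 value comes from the probe set without spread, and its second probe set gave -0.85. The Pcdh8 value comes from the _x_at probe set, and the unbound Pcdh9 values repeat. Interneuron markers were lower in 9 of 11 on these arrays, and after median centring 9 were lower and 2 higher. Their summed intensity ran from 15537 to 20031 on the TRAP arrays and from 42102 to 43762 on the unbound arrays. Astrocyte markers were lower in 7 and higher in 2 of 11, with a summed intensity from 16315 to 20606 on the TRAP arrays and from 32229 to 42323 on the unbound arrays. Microglia markers were lower in 8 of 9, and after median centring 8 were lower and 1 higher. Their summed intensity ran from 546 to 794 on the TRAP arrays and from 1694 to 2246 on the unbound arrays. The part of these cells in the protocadherin values was not tested.

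**Figure D3:**
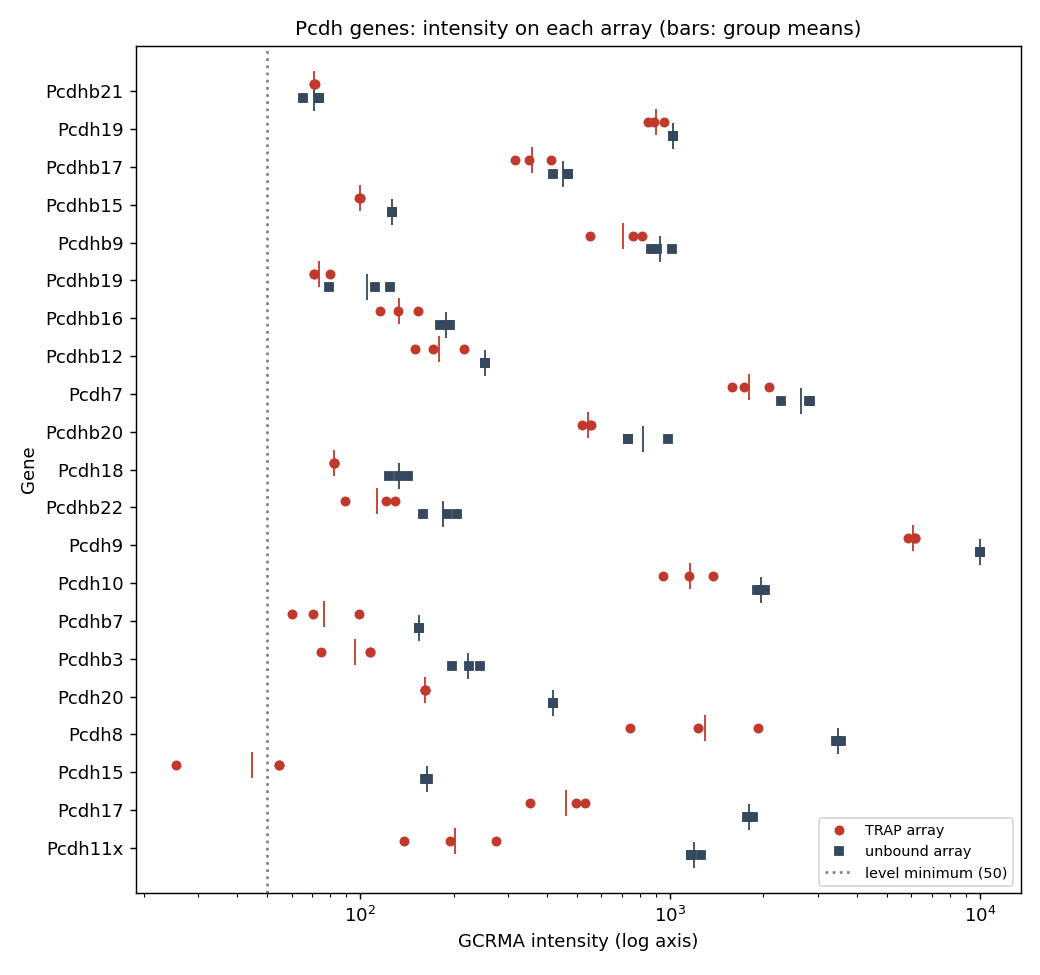
Intensity (x axis, log scale, GCRMA values) on each TRAP array (circles) and unbound array (squares) for the 21 represented Pcdh genes (y axis), ordered by fold change, with vertical bars at group means and a dotted line at 50. Pcdh11x, at 202 against 1198, has the widest gap, and the groups overlap in Pcdhb21 and Pcdhb19.

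Of the clustered beta genes, which are single-exon genes in a row on chromosome 18, 11 of 22 were tested. Among these 8 were lower, 0 higher and 3 not called, and 2 were at least 2-fold lower, beside 45.6% lower and 13.3% at least 2-fold lower over all represented genes. The 2-fold count lies near that share. Pcdhb3 measured 74.7, 107 and 107 on TRAP arrays 1 to 3 against 198, 244 and 223 on unbound arrays 1 to 3, with 1 value repeated on TRAP arrays 2 and 3 and no overlap (2.33-fold lower, log2 fold change -1.22, SE 0.18, limma adjusted p = 0.0025). Pcdhb7 measured 60.0, 70.4 and 99.0 on TRAP arrays 1 to 3 against 154, 154 and 154 on unbound arrays 1 to 3, with 1 repeated value on the unbound arrays (2.07-fold lower, log2 fold change -1.05, SE 0.19, limma adjusted p = 0.0060). Both stayed called after median centring, at -0.78 and -0.61, and neither passed the treat test (adjusted p = 0.73 and 1.0).

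The other 6 lower beta genes, Pcdhb12, Pcdhb15, Pcdhb16, Pcdhb17, Pcdhb20 and Pcdhb22, had log2 fold changes from -0.72 to -0.33. After median centring none of these 6 was called, with adjusted p from 0.083 to 0.66, and Pcdhb15 and Pcdhb17 read slightly above 0 (0.09 and 0.10). Pcdhb9 (log2 fold change -0.41, adjusted p = 0.078) and Pcdhb19 (-0.49, adjusted p = 0.065) did not pass, and Pcdhb19 passed with the replicate block (adjusted p = 0.0477) and without unbound array 1. Among the 6 lower genes, 3 lost their calls when single arrays were left out: Pcdhb12 without TRAP array 3 or any unbound array, Pcdhb17 without any array but TRAP array 3, and Pcdhb22 without unbound array 1 or 2. Pcdhb21 measured 70.9, 70.9 and 71.7 on TRAP arrays 1 to 3 against 73.5, 65.1 and 73.5 on unbound arrays 1 to 3 and showed no call (log2 fold change 0.01, adjusted p = 0.88). After median centring it was called higher at 0.45 (adjusted p = 0.0012). The remaining 11 beta genes and Pcdhgc4, the only gamma gene with a single-symbol probe set, had means under 50 in both groups. Beta genes are close copies of each other, so probe sets may share signal between them.

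**Figure D4:**
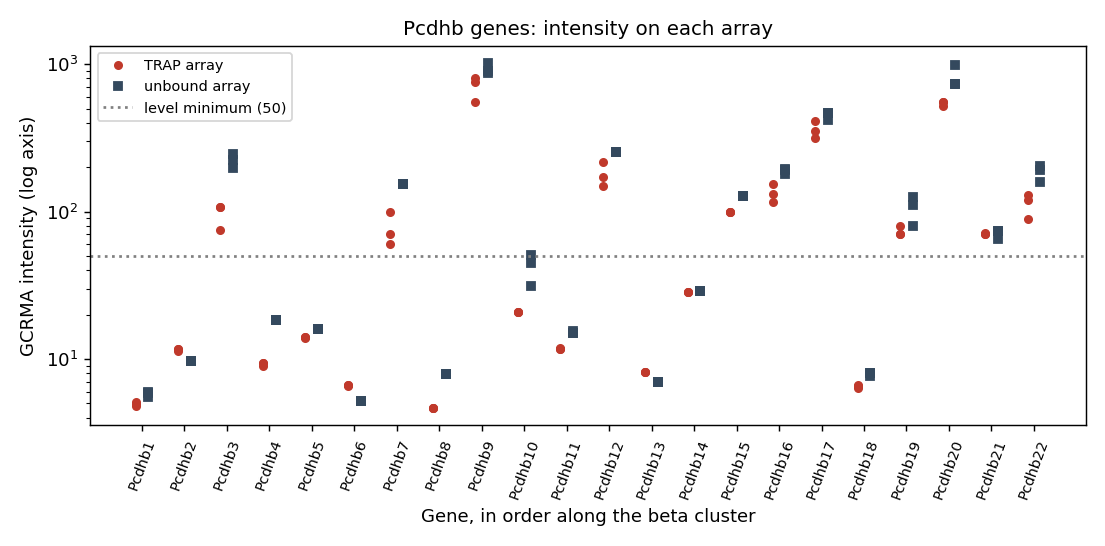
Intensity (y axis, log scale, GCRMA values) on each TRAP array (circles) and unbound array (squares) for the 22 beta genes in their order along the cluster (x axis), each by its brightest probe set, with a dotted line at 50. The 11 tested genes are spread along the row; Pcdhb3, at 96.5 against 222, has the widest gap in log2 terms among them, and the group means of the others lie under the line.

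Alpha protocadherins share their constant exons, and their 6 probe sets carry several symbols each, so they fall outside the membership rule and are given for context. The brightest, assigned to 14 alpha genes, measured 2232, 2533 and 2781 on the TRAP arrays and 3917, 4044 and 3917 on the unbound arrays. It was 1.58-fold lower (log2 fold change -0.66, adjusted p = 0.0017). A second was 1.51-fold lower (adjusted p = 0.018), one more was not called (-0.48, adjusted p = 0.22), and a dim one assigned to 9 genes was 1.84-fold higher at 62.4 against 33.6 (adjusted p = 0.0034). The last 2 were under 50.

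Of the 14 Cdh and Pcdh genes with several tested probe sets, 13 had all of them on one side of 0 and 0 had calls in opposite directions. Pcdh19 was the exception in sign. No such count was made over all genes with several tested probe sets, of which no share is therefore given. With 47.7% of all tested probe sets called lower, this agreement is not read as a result about the members. Some of these probe sets, such as 1 of Cdh7 and 1 of Pcdh10, reached the minimum only through the unbound group. In 4 genes, Cdh2, Cdh8, Cdh10 and Pcdh19, some probe sets were called and others not.

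Genes that work with cadherins were taken from 4 lists and each represented by its probe set of highest mean. Of 89 listed genes 60 were tested, 9 were higher and 35 lower, beside 23.2% and 45.6% of all represented genes. After median centring the split was 21 higher and 15 lower, beside 43.9% higher and 25.3% lower over all tested probe sets. Their balance thus turned with the scaling, as did that over all tested probe sets. The same shares stand beside the counts of each list below. Their median log2 fold change was -0.37, against -0.21 over all represented genes.

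Catenins and junction adaptors link cadherin tails to actin, and 6 of 21 were higher and 11 lower, turning to 9 higher and 3 lower after median centring. Ajuba, a LIM protein that binds alpha-catenin, measured 417 ± 120.3 (SD, n = 3) against 61.7 ± 0 (6.59-fold higher, log2 fold change 2.72, adjusted p = 2.4e-04). Its 3 unbound arrays hold 1 repeated value. Its relative Limd1 was 2.14-fold higher (log2 fold change 1.10, adjusted p = 0.0020). Ctnna1, the alpha-catenin of epithelia and many other cells, was 1.48-fold higher at 10826 ± 1782 (SD, n = 3) against 7275 ± 657 (log2 fold change 0.56, adjusted p = 0.019). Ctnna2, the neuronal alpha-catenin, was 1.26-fold lower at 1939 ± 0 (SD, n = 3) against 2457 ± 164 (log2 fold change -0.34, adjusted p = 0.0039), a call lost after median centring (0.10, adjusted p = 0.23). The difference between Ctnna1 and Ctnna2 was not tested. Ctnnb1, beta-catenin, was 1.19-fold lower (log2 fold change -0.26, adjusted p = 0.0021), and after median centring it was called higher at 0.18. Pkp2, plakophilin 2, measured 127 ± 44.4 (SD, n = 3) against 458 ± 75.2 (3.73-fold lower, log2 fold change -1.90, adjusted p = 0.0038), and Magi3, a scaffold, was 1.71-fold lower (log2 fold change -0.78, adjusted p = 0.0034). Ctnnd1 and Ctnnd2, the p120 and delta catenins, did not pass (adjusted p = 0.064 and 0.10) but did with the replicate block (adjusted p = 0.031 and 0.012).

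Other members of the cadherin superfamily were lower in 7 of 11 and higher in 0, with 5 at least 2-fold lower. Of all represented genes 45.6% were called lower, 23.2% higher and 13.3% at least 2-fold lower. The giant cadherins Fat1 and Fat3 measured 89.8 ± 23.3 (SD, n = 3) against 359 ± 24.0 (log2 fold change -2.03, adjusted p = 6.9e-04) and 338 ± 43.1 (SD, n = 3) against 1109 ± 108 (log2 fold change -1.72, adjusted p = 2.1e-04). Clstn2, a postsynaptic calsyntenin, was 3.11-fold lower (log2 fold change -1.63, adjusted p = 4.7e-04), while its relative Clstn1 was not called (log2 fold change 0.01, adjusted p = 0.97) but was called higher after median centring (0.44, adjusted p = 0.041). The desmosomal gene Dsg2 was 2.95-fold lower with a TRAP mean under 50, or 2.21-fold with values under 50 raised to 50 (log2 fold change -1.56, adjusted p = 4.3e-04). After median centring this list had 1 member called higher and 4 lower, beside 43.9% higher and 25.3% lower over all tested probe sets.

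Proteases that cut cadherins and genes of their turnover gave 1 higher and 4 lower of 9, and after median centring 4 higher and 3 lower. Adam10, which sheds the N-cadherin and E-cadherin ectodomains, measured 1237 ± 246 (SD, n = 3) against 2457 ± 70.6 (2.01-fold lower, log2 fold change -1.01, adjusted p = 0.0034). Adam17 was 2.34-fold lower (log2 fold change -1.22, adjusted p = 0.0094) and the gamma-secretase subunit gene Aph1b 1.98-fold lower (log2 fold change -0.98, adjusted p = 0.0017). Psenen, another gamma-secretase subunit, was 1.60-fold higher at 6708 ± 638 (SD, n = 3) against 4195 ± 274 (log2 fold change 0.68, adjusted p = 0.0018), and the difference between the 2 subunits was not tested.

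Among regulators and effectors of protocadherins 2 of 19 were higher and 13 lower, and after median centring 7 higher and 5 lower. Dab1, the Reelin adaptor, measured 291 ± 15.1 (SD, n = 3) against 1636 ± 83.0 (5.62-fold lower, log2 fold change -2.49, adjusted p = 4.0e-06). Rest, a repressor of neuronal genes that binds protocadherin cluster elements, was 2.62-fold higher at 152 ± 24.1 (SD, n = 3) against 57.6 ± 7.79 (log2 fold change 1.39, adjusted p = 9.5e-04). The insulator gene Ctcf, which governs promoter choice in the clusters, was not called (log2 fold change 0.12, adjusted p = 0.34) but was called higher after median centring (0.55, adjusted p = 0.0033). Of the listed cohesin subunit genes, Smc3 and Rad21 were 1.62-fold and 1.196-fold lower (adjusted p = 4.3e-04 and 0.032) and Smc1a 1.15-fold higher (adjusted p = 0.014). Stag1 was 1.33-fold lower (adjusted p = 0.014) and Stag2 was not called (log2 fold change -0.01, adjusted p = 0.90). After median centring Stag1 was not called (0.02, adjusted p = 0.83) and Stag2 was called higher (0.42, adjusted p = 0.0071). After median centring Rad21 read above 0 (0.18) without a call, and with the replicate block it just missed the threshold (adjusted p = 0.0500045). Ptk2b, the kinase Pyk2 that protocadherins bind, was 1.89-fold lower (log2 fold change -0.92, adjusted p = 3.0e-05) and Taok2, a kinase downstream of Pcdh8, 1.79-fold lower (log2 fold change -0.84, adjusted p = 0.0030).

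**Figure D5:**
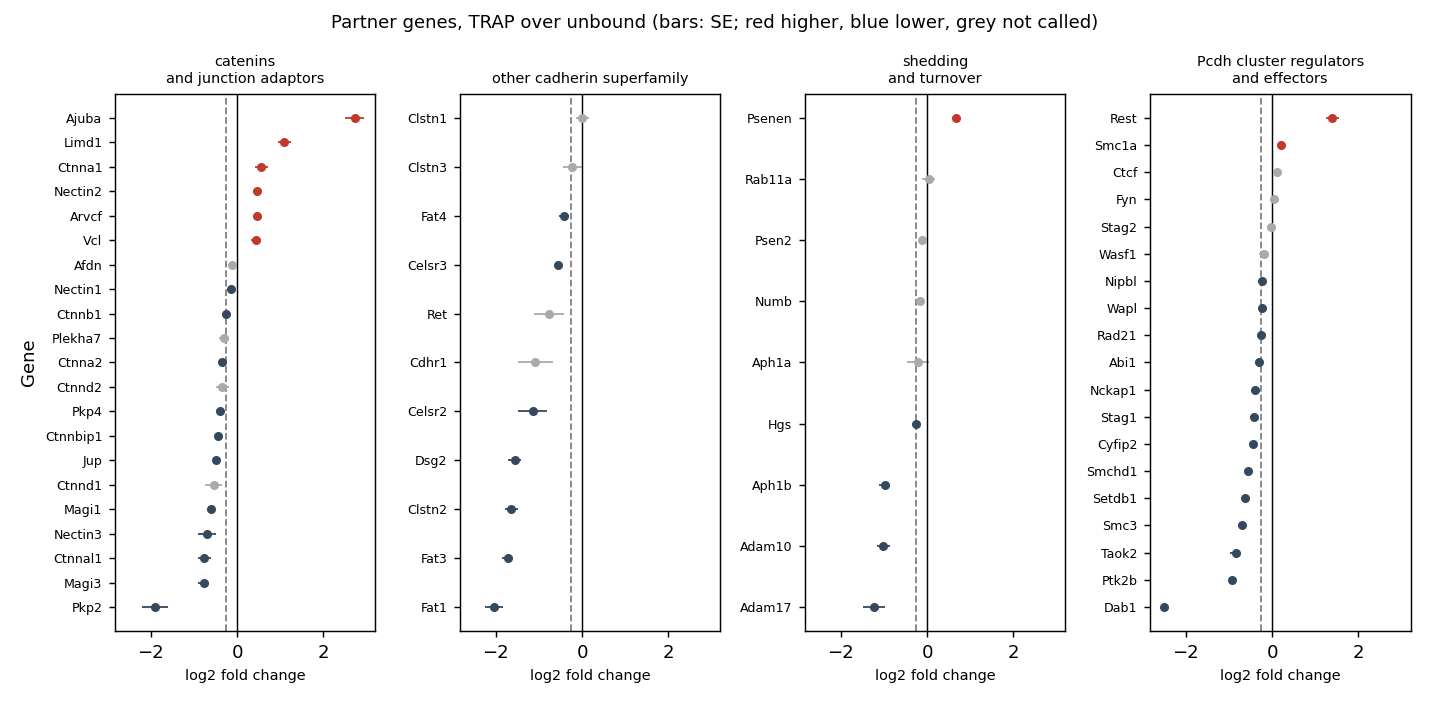
Log2 fold change of TRAP over unbound (x axis, bars show SE) for the 60 tested partner genes (y axis) in 4 lists, red for called higher, blue for called lower and grey for not called, with a dashed line at the median of all tested probe sets. Ajuba at 2.72 and Rest at 1.39 lie to the right, Dab1 at -2.49 and Fat1 at -2.03 to the left.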

How the data were processed

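The 6 Affymetrix arrays, 3 for TRAP and 3 for unbound RNA, were each made from 15 ng of total RNA amplified with a 2-cycle kit per the labels' protocols. The deposited intensity values are on a linear scale and were obtained by the authors with GCRMA, per the submitters' processing notes. The version, and whether the groups were processed together, are not given in the sources used here. 0 columns were left unused. Where a probe set lies along its transcript can affect its value after such amplification. Precision is limited by the small number of arrays.

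Of 45101 probe sets 64 are controls, and 22591 others had a group mean of at least 50 and were tested as log2 intensity with limma 3.58.1 (R 4.3.3), two-sided, by lmFit with a term for group and eBayes, and p-values were adjusted by Benjamini-Hochberg over all of them. No pseudocount was used. A gene was represented by its brightest tested probe set (mean of 6 arrays), giving 12070 genes. The 101 member probe sets matched RefSeq (GRCm38.p6) by Entrez ID with 0 symbols changed. The fit was tested on simulated data without repeated values, so that test does not cover probe sets that repeat values within a group. Samples of the same replicate number deviated together, with correlations of 0.424, 0.454 and 0.374 across probe sets for numbers 1 to 3, so the numbers, which come from the sample titles, pair the samples, and the replicate block is an alternative. With 3 samples against 3 the smallest exact permutation p is 0.1, so no value was tested by permutation.

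The members and lists were chosen with earlier results of these data known. Named in full were represented genes called with at least a 2-fold change and without overlap of groups, up to 12 in each direction, and up to 4 called partner genes of each list. Other members were named by family, and partner genes beyond this rule after their values were seen. Alternatives were other filters on low values, values raised to 50, median centring, quantile normalisation, the replicate block, a trended prior, limma's treat, leaving out repeated values or _x_at and _s_at probe sets, 1 probe set per gene, and leaving out each array.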

Additional observations from a re-analysis of the deposited data

How the results depend on the processing

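Counts of calls depended on how low values, repeated values and scaling were treated. Shares over all probe sets are given above for the main fit (also by gene), median centring, the replicate block and treat. The other settings have no such share here. Their counts describe the members alone and cannot be told from a shift of the whole array. With no filter on low values 8 Cdh probe sets were higher and 23 lower, 7 Pcdh probe sets were higher and 46 lower, and 17 Pcdh probe sets were at least 2-fold lower. When both means had to reach 50, Cdh calls in the higher direction fell to 1, and 0 at 2-fold, since Cdh1 was left out; the limma count at unadjusted p under 0.05 was also 0. By treat, 1 Cdh probe set was higher, 4 were lower (4 at 2-fold), 5 Pcdh probe sets were lower (5 at 2-fold), and 1 partner gene was higher and 5 lower. After median centring 4 Cdh and 6 Pcdh probe sets were at least 2-fold lower, Pcdh calls were 3 higher and 15 lower, and partner calls 21 higher and 15 lower. Quantile normalisation gave 1 Pcdh probe set higher, 17 lower and 23 partner genes lower. Without repeated values, which leaves fewer probe sets, 9 Cdh (5 at 2-fold) and 12 Pcdh probe sets (5 at 2-fold) were lower, and partner calls were 4 higher and 17 lower. With 1 probe set per gene, which also leaves fewer, 8 Cdh genes were lower, 5 of them by at least 2-fold, as were 7 Pcdh genes by at least 2-fold. Directions turned for Cdh11 (0.0341), Cdh6 (0.0751), Pcdh19 (0.25), Pcdhb15 (0.0872) and Pcdhb17 (0.102) after centring, and for Pcdh19 after quantile normalisation (0.0277). Centring adds one shift to every log2 fold change; the cause was otherwise not tested. The replicate block gave 2 Cdh probe sets higher and 16 lower and 28 Pcdh lower, and among represented members and partner genes changed no call but those of Cdh2, Pcdhb19, Ctnnd1, Ctnnd2 and Rad21. Leaving out 1 array gave 14 to 16 Cdh and 21 to 25 Pcdh probe sets lower and 2 to 3 Cdh higher. It ended the limma call of Pcdhb17 in 5 of 6 cases (adjusted p 0.062 to 0.13, kept without TRAP replicate 3), of Pcdh7 (TRAP 1 or 2, unbound 1 or 3; 0.0532 to 0.064), Pcdh19 (TRAP 1, any unbound; 0.060 to 0.068), Pcdhb12 (TRAP 3, any unbound; 0.072 to 0.079), Cdh11 (TRAP 1 or 2, unbound 3; 0.0502 to 0.0528) and Pcdhb22 (unbound 1 or 2; 0.061 to 0.063). Cdh2 and Pcdhb19 gained a call without unbound replicate 1. No depth is defined for arrays, and members under the level minimum have no test here.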

Other observations

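Some members under the level minimum still read apart between groups, and a few, chosen after their values were seen, are given as values with no test. Pcdh12, a protocadherin of endothelial cells, read by its brightest probe set 8.33, 8.43 and 8.43 on the TRAP arrays and 22.4, 21.8 and 21.3 on the unbound arrays. Pcdh15 read 12.1, 12.5 and 12.8 against 34.4, 34.4 and 33.7 by a second probe set, in the direction of the tested one. An untested Cdh10 probe set read 5.15, 5.31 and 5.50 against 19.1, 19.1 and 19.1. Another untested Cdh10 probe set went the other way, at 9.29, 9.40 and 9.40 against 8.20, 8.20 and 8.10. Cdh16 read 18.1, 17.5 and 18.1 against 32.3, 32.3 and 32.3. Cdh8 read 32.9, 40.2 and 33.2 against 21.6, 23.5 and 20.6 by an untested probe set, higher in TRAP RNA like the tested ones. Of the 48 untested members, 17 read higher in TRAP RNA. All of these group means lie under the level minimum.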
